A study of Mus musculus with 8 samples.

Results

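The BCL2 family was followed through 10 genes in mouse leukaemia cells treated with 3 compounds. They were matched by symbol, and all 10 had a row among the 20484 genes of the deposited table. Of these, 3 are survival genes (Bcl2, Bcl2l1 and Mcl1), 5 are BH3-only death genes (Bcl2l11, Bid, Pmaip1, Bbc3 and Bmf) and 2 encode the proteins that form the mitochondrial pore (Bax and Bak1). RNA came from RN2 cells, an engineered C57BL/6J acute myeloid leukaemia line that, per the labels, carries MLL-AF9 and NRAS G112D in all 4 groups. The groups were the solvent DMSO, RVX-208, OTX-015 and BBC1115, with 2 libraries each, called biological replicates. No source used here gives a dose or a treatment time, so values of the compounds stand beside each other without matching. All results come from 1 cultured line with engineered oncogenes.

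Proteins of the BCL2 family decide at the mitochondrial surface whether a stressed cell dies. Survival proteins hold the pore formers BAX and BAK in check, and BH3-only proteins bind the survival proteins or activate the pore formers, so that cytochrome c is released and caspases start. Myeloid leukaemia cells often rely on MCL1 and BCL2. OTX-015 (birabresib) binds the bromodomains of all BET proteins, readers of acetylated histones, RVX-208 (apabetalone) favours the second bromodomain of each, and BBC1115 comes from the study's screen of a DNA-encoded library for BET binders.

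Sequence before the start of some genes described below is given here, and its likeness between genes was not measured. The bases just before the RefSeq start (GRCm38.p6) are shown for the BH3-only gene that rose the most, for the survival gene that rose, for a survival gene that fell and for a BH3-only gene that fell, so that they can be compared. They are written 5′ to 3′ on the gene's strand, with capitals for matches on either strand to the GC box GGGCGG, the FOXO core GTAAACA, the box CCAAT, the MYC-type E-box CACGTG or the TATA box TATAAA.
Bcl2l11 (chr2:128125788-128126037, plus strand): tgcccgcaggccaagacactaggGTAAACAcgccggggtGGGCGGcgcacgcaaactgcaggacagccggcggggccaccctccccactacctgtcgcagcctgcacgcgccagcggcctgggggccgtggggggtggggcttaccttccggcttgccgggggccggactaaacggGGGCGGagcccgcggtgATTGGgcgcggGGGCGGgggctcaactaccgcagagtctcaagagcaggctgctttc
Mcl1 (chr3:95658471-95658720, plus strand): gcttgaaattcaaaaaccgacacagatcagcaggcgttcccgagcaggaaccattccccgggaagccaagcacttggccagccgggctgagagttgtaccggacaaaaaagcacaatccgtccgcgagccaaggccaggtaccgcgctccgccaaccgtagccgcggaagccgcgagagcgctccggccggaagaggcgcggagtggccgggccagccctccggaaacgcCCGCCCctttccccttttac
Bcl2 (chr1:106714291-106714540, minus strand): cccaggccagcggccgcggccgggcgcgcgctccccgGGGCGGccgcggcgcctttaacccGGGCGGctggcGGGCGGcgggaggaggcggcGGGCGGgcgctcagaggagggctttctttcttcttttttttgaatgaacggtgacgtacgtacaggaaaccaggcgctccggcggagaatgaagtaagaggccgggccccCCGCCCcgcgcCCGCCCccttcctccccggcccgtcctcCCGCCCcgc
Bid (chr6:120916854-120917074, minus strand): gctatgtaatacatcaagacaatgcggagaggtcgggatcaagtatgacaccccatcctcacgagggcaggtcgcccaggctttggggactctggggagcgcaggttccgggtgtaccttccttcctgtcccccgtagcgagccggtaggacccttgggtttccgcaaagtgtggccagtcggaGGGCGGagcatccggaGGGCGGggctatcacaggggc
The GC box GGGCGG matched 3 times in the Bcl2l11 stretch, 1 time in Mcl1, 7 times in Bcl2 and 2 times in Bid. The Bid stretch has 221 bases because the 29 bases next to the RefSeq start lie inside the annotated gene, and the others have 250. The full Bid window of 250 bases held 3 matches to the GC box, 1 of them cut by this shortening. Bcl2l11 also held 1 match to GTAAACA, the core letters bound by FOXO factors, and 1 to CCAAT. Over the 16 windows of 250 bases found for 9 members, GGGCGG matched in 9 windows of 6 genes, GTAAACA in 2 windows (Bcl2l11 and Bbc3), CCAAT in 5 windows of 3 genes, the MYC-type E-box CACGTG in 2 windows (Bax and Bbc3) and TATAAA in 0. Among all 32851 such windows the shares with a match were 32.7% for GGGCGG, 3.17% for GTAAACA, 33.8% for CCAAT, 6.02% for CACGTG and 12.4% for TATAAA. Among the 9969 windows of kept genes they were 58.9%, 2.05%, 36.4%, 8.64% and 5.81% in the same order, so the GC box was about as common in the members' windows as in those of kept genes. In the printed stretches no match shares bases with a match of another motif. A match is a run of letters and not a bound site.

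On the mm10 build with GENCODE M21, Bcl2 lies at chr1:106538178-106714274, Bcl2l1 at chr2:152780668-152831728, Mcl1 at chr3:95658788-95663176, Bcl2l11 at chr2:128126038-128162547 and Bbc3 at chr7:16308393-16318205. Pmaip1 lies at chr18:66458533-66465565, Bmf at chr2:118528757-118549687, Bid at chr6:120891930-120916853, Bax at chr7:45461697-45466898 and Bak1 at chr17:27019810-27029009. All 10 are protein coding genes. Exons of Bid share 628 nucleotides with Bcl2l13 on the opposite strand, those of Bak1 share 177 and 437 with Ggnbp1 on the opposite strand, those of Bcl2 share 558 with an antisense gene and those of Bax share 192 with a gene on the same strand. The labels' protocols name a directional kit, but no source used here gives the strand setting for counting. Whether reads of the opposite-strand pairs were counted apart is therefore not known. For Bax and its same-strand neighbour, strand could not separate them. Bcl2l13 stood between 10.2 and 12.1 RPKM in all 8 libraries, and Ggnbp1 at 0.857 RPKM or less. RPKM is the read number scaled by transcript length and library size, and it does not separate isoforms.

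Depth is not in the table. From the lowest values it was estimated at 10900000 to 18000000 reads per library, an estimate that rests on only 7 to 12 genes a library. Myc, the usual marker of BET inhibition, was at 97.8 ± 2.72 RPKM in DMSO (mean ± SD, n = 2), 63.2 ± 1.37 with RVX-208, 3.74 ± 0.00612 with OTX-015 and 2.51 ± 0.357 with BBC1115, and all 3 differences from DMSO passed in the limma model, with adjusted p = 0.0355, 1.9e-10 and 4.29e-11. Hexim1, which BET inhibitors are known to raise, was at 23.3 ± 0.86 RPKM in DMSO, 30.2 ± 0.776 with RVX-208 (limma adjusted p = 0.123), 122 ± 8.89 with OTX-015 (6.52e-09) and 190 ± 9.11 with BBC1115 (4.11e-10). The 8 myeloid markers examined, which include Ptprc, Spi1 and Mpo, were all kept, and their summed RPKM ran from 675.0 to 701.2 in DMSO, 667 to 676 with RVX-208, 375 to 423 with OTX-015 and 319 to 329 with BBC1115. Markers of T and NK cells, B cells, erythroid and megakaryocytic cells and stroma had no gene kept, and their summed RPKM per list was at most 1.75. Of the 8 myeloid markers, 7 passed as lower than DMSO with OTX-015 and 7 with BBC1115 (limma adjusted p under 0.05). Beside them, 40.0% and 49.3% of all kept genes were lower. Bcl2, Bcl2l1, Bid and Bak1 moved in that direction, whereas Mcl1 and Bcl2l11 moved the other way. The markers' part in the results was not tested. In such bulk samples, fewer cells of a type and less RNA per cell cannot be told apart.

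With OTX-015 and BBC1115 the survival genes parted: Mcl1, which encodes a short-lived survival protein, rose, whereas Bcl2 and Bcl2l1 fell. A log2 fold change here is the difference of mean log2(RPKM + 1), a fold is the ratio of mean RPKM, and adjusted p comes from limma over the 9975 genes with at least 1 RPKM in at least 2 libraries. With OTX-015, 8 of 9 kept members passed adjusted p under 0.05, 2 higher and 6 lower, beside 64.3% of all kept genes (24.2% higher and 40.0% lower). With BBC1115, 3 were higher and 5 lower, beside 26.4% and 49.3% (75.6% in either direction). Since most genes passed in both comparisons, a call alone does not set these genes apart, and the values below carry the description. The median log2 fold change of the 9 was -0.60 with OTX-015 and -0.54 with BBC1115, beside -0.13 and -0.25 for all kept genes. After upper-quartile scaling the all-gene medians were 0.035 and -0.018, and 35.7% of genes were higher and 30.7% lower with OTX-015, so changes near these values depend on the scaling. The OTX-015 split of members then became 3 higher and 5 lower.

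In RPKM, Mcl1 was at 82.1 and 78.4 in DMSO, 129.6 and 124.4 with OTX-015 and 197.8 and 182.7 with BBC1115. The libraries of the groups did not overlap, and BBC1115 was highest. The rise was 1.58-fold with OTX-015 (log2 fold change 0.66 ± 0.08 SE, adjusted p = 3.97e-05) and 2.37-fold with BBC1115 (1.23, adjusted p = 1.28e-07). With RVX-208 the values were 85.3 and 82.5 RPKM, a log2 difference of 0.06 with a 95% interval of -0.12 to 0.24 (limma adjusted p = 0.686).

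Bcl2, which encodes the founding survival protein and the target of venetoclax, stood at 11.8 and 13.9 RPKM in DMSO, 7.999 and 7.72 with OTX-015 and 3.84 and 3.74 with BBC1115. All libraries of both compounds lay below both DMSO libraries. It fell 1.63-fold with OTX-015 (log2 fold change -0.64, limma adjusted p = 0.000252) and 3.39-fold with BBC1115 (-1.53, adjusted p = 1.44e-07). RVX-208 gave 13.0 and 12.9 RPKM, inside the DMSO range (log2 difference 0.01, 95% interval -0.21 to 0.24, adjusted p = 0.958).

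Bcl2l1, the BCL-XL gene, went with Bcl2. It was at 13.0 and 12.9 RPKM in DMSO, 7.85 and 7.57 with OTX-015 and 3.26 and 3.05 with BBC1115. The drop was 1.68-fold (log2 fold change -0.68, limma adjusted p = 0.000202) and 4.11-fold (-1.75, adjusted p = 6.48e-08). The RVX-208 libraries, at 14.6 and 12.2 RPKM, lay on both sides of DMSO (log2 difference 0.04, 95% interval -0.19 to 0.27, adjusted p = 0.852).

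**Figure D1:**
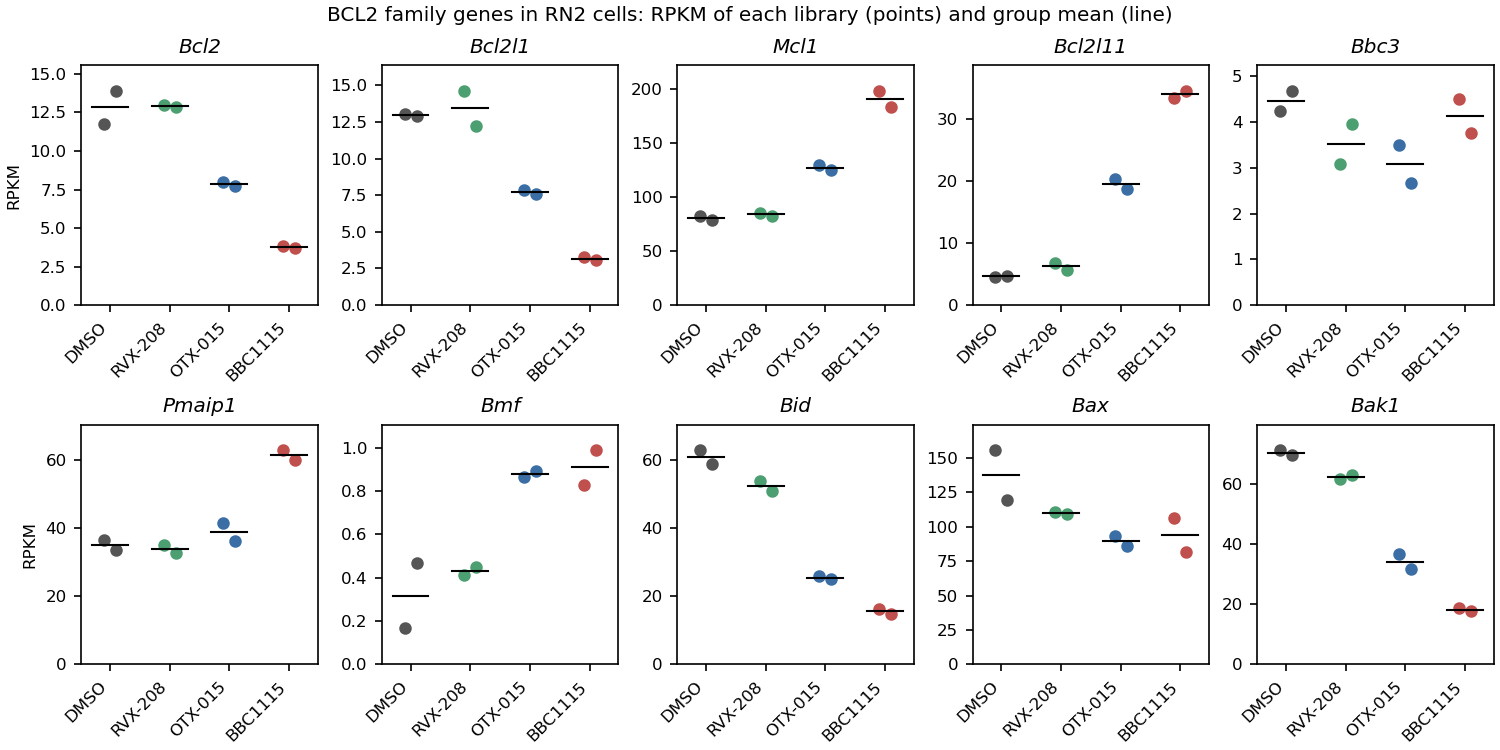
RPKM of each BCL2 family gene by treatment. Each point is 1 library and each bar is the mean of 2, and the axes start at 0 and differ between genes. Mcl1 and Bcl2l11 step up from DMSO to OTX-015 to BBC1115, while Bcl2, Bcl2l1, Bid and Bak1 step down.

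Of the BH3-only genes, Bcl2l11 rose with both compounds and Bid fell with both, Pmaip1 rose with BBC1115 and Bbc3 fell with OTX-015. Bcl2l11, which encodes BIM, a broad binder of survival proteins, had the largest change of the 10 genes. It stood at 4.56 and 4.68 RPKM in DMSO, 20.3 and 18.7 with OTX-015 and 33.4 and 34.5 with BBC1115. The 3 groups did not overlap. The rise was 4.23-fold with OTX-015 (log2 fold change 1.87, limma adjusted p = 9.7e-08) and 7.35-fold with BBC1115 (2.64, adjusted p = 2.62e-09). RVX-208 gave 6.82 and 5.67 RPKM, both above DMSO. That log2 difference of 0.36 had a 95% interval of 0.14 to 0.59 and missed the threshold (limma unadjusted p = 0.00456, adjusted p = 0.151).

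Bid, whose product is cleaved by caspase-8 and links death receptors to mitochondria, was the most abundant BH3-only member in DMSO, at 63.0 and 59.0 RPKM. It stood at 54.0 and 50.9 with RVX-208, 25.9 and 25.1 with OTX-015 and 16.3 and 14.9 with BBC1115. No group overlapped another. The drop was 2.39-fold with OTX-015 (log2 fold change -1.22, limma adjusted p = 5.56e-07) and 3.90-fold with BBC1115 (-1.90, adjusted p = 7.16e-09). Its overlapping neighbour Bcl2l13 averaged 10.5 RPKM in DMSO, 11.4 with OTX-015 and 11.8 with BBC1115 and passed in neither comparison as deposited. After upper-quartile scaling it passed as higher in both (limma adjusted p = 0.00918 and 0.00115), as it did after quantile normalization (0.0194 and 0.000464).

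Pmaip1 encodes NOXA, a BH3-only protein that binds MCL1. It stood at 36.6 and 33.8 RPKM in DMSO, 35.1 and 32.6 with RVX-208, 41.6 and 36.4 with OTX-015 and 63.0 and 59.97 with BBC1115. The BBC1115 libraries were above all others, while one OTX-015 library lay within the DMSO range. It rose 1.75-fold with BBC1115 (log2 fold change 0.79, limma adjusted p = 1.28e-05). With OTX-015 the log2 difference was 0.14 (95% interval -0.06 to 0.34, adjusted p = 0.196). The OTX-015 call depended on scaling: it passed after upper-quartile scaling (adjusted p = 0.00232), after quantile normalization (0.00153) and as TPM (0.00251), over a range up to 0.685.

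Bbc3, the gene of the p53-responsive protein PUMA, was low. It stood at 4.24 and 4.68 RPKM in DMSO, 3.09 and 3.95 with RVX-208, 3.4995 and 2.66 with OTX-015 and 4.49 and 3.75 with BBC1115. Only OTX-015 passed, with a 1.45-fold drop (log2 fold change -0.43 ± 0.14 SE, limma adjusted p = 0.0206). The call was lost in 6 of 18 alternatives, with adjusted p from 0.00879 to 0.178 over all of them; they include upper-quartile scaling (0.0862) and leaving out OTX-015 replicate 2 (0.178) or DMSO replicate 2 (0.0638). With BBC1115 the log2 difference was -0.09 (95% interval -0.41 to 0.22, adjusted p = 0.555), with a positive sign after upper-quartile scaling.

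Bmf encodes a BH3-only protein that is held on the cytoskeleton until stress. It was listed at 0.168 and 0.467 RPKM in DMSO, 0.413 and 0.451 with RVX-208, 0.864 and 0.891 with OTX-015 and 0.830 and 0.989 with BBC1115. It reached 1 RPKM in no library and so was left out of the 9 tested members. Where no filter was used, its log2 difference was 0.52 with OTX-015 (limma adjusted p = 0.00703) and 0.54 with BBC1115 (0.004).

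Both pore-forming genes fell with OTX-015 and BBC1115, Bak1 by more. Bak1, whose product sits in the outer mitochondrial membrane, was at 71.1 and 69.5 RPKM in DMSO, 61.5 and 63.0 with RVX-208, 36.6 and 31.5 with OTX-015 and 18.7 and 17.6 with BBC1115. The groups formed a descending series without overlap. The drop was 2.06-fold with OTX-015 (log2 fold change -1.03, limma adjusted p = 2.87e-06) and 3.87-fold with BBC1115 (-1.90, adjusted p = 1.08e-08). Ggnbp1, which shares exon sequence with it, stayed at 0.857 RPKM or less in all 8 libraries.

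Bax, whose product moves from the cytosol to mitochondria, had DMSO libraries that lay far apart in RPKM. Its values were 155.5 and 119.3 RPKM in DMSO, 110.9 and 109.5 with RVX-208, 93.0 and 85.8 with OTX-015 and 106.5 and 81.5 with BBC1115. The DMSO libraries differed from each other by more than the RVX-208 group lay below the lower of them. Bax fell 1.54-fold with OTX-015 (log2 fold change -0.60 ± 0.14 SE, limma adjusted p = 0.00302) and 1.46-fold with BBC1115 (-0.54, adjusted p = 0.00421). The BBC1115 call was lost after upper-quartile scaling (adjusted p = 0.0859, over a range from 0.000144). For RVX-208 the difference missed the threshold (-0.30, 95% interval -0.61 to 0.01, adjusted p = 0.281) but passed without DMSO replicate 2 (-0.49, adjusted p = 0.0349).

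**Figure D2:**
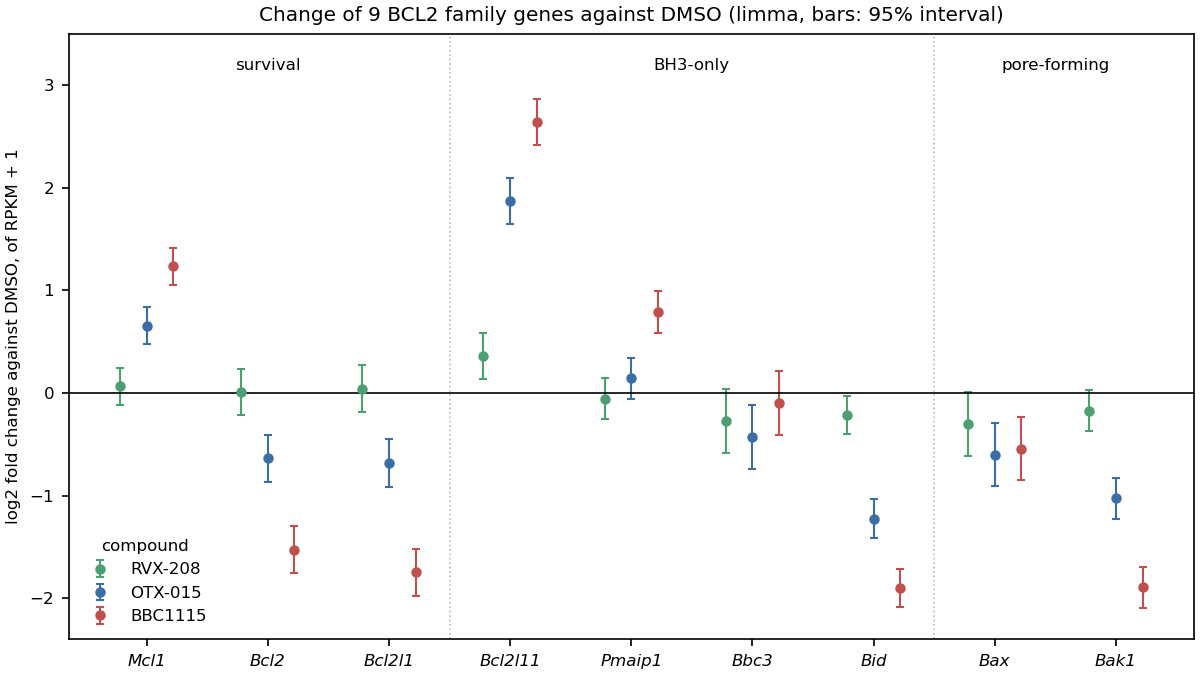
Log2 fold change of RPKM + 1 against DMSO for the 9 tested BCL2 family genes, one point per compound, with 95% intervals from limma. Bcl2l11 lies highest for OTX-015 (1.87) and BBC1115 (2.64), and the RVX-208 points run from -0.30 (Bax) to 0.36 (Bcl2l11).

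RVX-208 changed none of the 9 tested members at adjusted p under 0.05. Of all kept genes 0.0902% passed as higher and 0.0802% as lower (0.17% in either direction, 17 genes), so 0 of 9 is near the background. Bcl2l11 and Bid (2 members) had an unadjusted limma p under 0.05, beside 1820 of the 9975 genes. In log2 differences, Bid was at -0.21 (95% interval -0.40 to -0.03, adjusted p = 0.239), Bak1 at -0.17 (0.325), Pmaip1 at -0.06 (0.764) and Bbc3 at -0.28 (95% interval -0.59 to 0.03, 0.319). The widest intervals were those of Bax and Bbc3, and the data therefore do not show that RVX-208 left these genes as in DMSO.

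The comparison of BBC1115 with OTX-015 gave 3 members higher with BBC1115 and 4 lower, beside 14.2% and 29.7% of all kept genes (43.9% in either direction). Higher were Mcl1 (log2 fold change 0.58, limma adjusted p = 0.000271), Bcl2l11 (0.77, 0.000186, 1.74-fold) and Pmaip1 (0.65, 0.000295, 1.58-fold). Lower were Bcl2 (-0.89, 7.47e-05), Bcl2l1 (-1.07, 2.67e-05), Bid (-0.67, 0.000129) and Bak1 (-0.87, 3.63e-05). Each of these 7 went further in the direction it had against DMSO. For Pmaip1, however, the OTX-015 difference from DMSO was not called as deposited (0.14, 95% interval -0.06 to 0.34, limma adjusted p = 0.196). Bax differed by 0.06 (95% interval -0.25 to 0.37, adjusted p = 0.757) and Bbc3 by 0.33 (adjusted p = 0.0775). Bbc3 passed as higher with BBC1115 after upper-quartile scaling (limma adjusted p = 0.035) and quantile normalization (0.00802). It also passed in the fit of only the groups compared (0.0484). Against RVX-208, Bbc3 likewise passed as higher with BBC1115 after these 2 scalings (0.0311 and 0.00259), so its missing calls depend on the scaling. Doses are not given, so compound and dose cannot be told apart here. RVX-208 against OTX-015 had 4 members higher and 2 lower, beside 38.1% and 17.6% of kept genes (55.7% in all), and BBC1115 against RVX-208 had 3 higher and 4 lower, beside 23.9% and 49.6% (73.5% in all). Bak1, for instance, was 1.83-fold higher with RVX-208 than with OTX-015 (limma adjusted p = 1.69e-05), and Bcl2l11 was 5.43-fold higher with BBC1115 than with RVX-208 (9.37e-09).

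Within a library, where scaling cancels, the make-up of the family shifted. Mcl1 was 76.8% and 74.5% of the summed RPKM of the 3 survival genes in DMSO, 75.6% and 76.7% with RVX-208, 89.1% and 89.1% with OTX-015 and 96.5% and 96.4% with BBC1115. The Bcl2 share was 11.0% and 13.2% in DMSO and 1.87% and 1.97% with BBC1115. Among the 5 BH3-only genes, Bid was 58.0% and 57.5% of the sum in DMSO and 13.8% and 13.1% with BBC1115. Bcl2l11 moved from 4.19% and 4.56% in DMSO to 22.04% and 22.4% with OTX-015 and 28.3% and 30.2% with BBC1115. The BH3-only sum itself was 108.6 and 102.5 RPKM in DMSO, 92.3 and 83.7 with OTX-015 and 118.0 and 114.1 with BBC1115. Unlike the shares, this sum depends on the scaling between libraries. As deposited, the make-up changed more than the sum.

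Ratios between single members followed. Bcl2l11 to Bcl2 was 0.387 and 0.337 in DMSO, 0.526 and 0.441 with RVX-208, 2.54 and 2.42 with OTX-015 and 8.69 and 9.23 with BBC1115. Bcl2l11 to Mcl1 moved less, from 0.0555 and 0.0597 in DMSO to 0.157 and 0.1504 with OTX-015 and 0.169 and 0.189 with BBC1115. The summed BH3-only level over the summed survival level was 1.02 and 0.975 in DMSO, 0.880 and 0.870 with RVX-208, 0.635 and 0.599 with OTX-015 and 0.576 and 0.602 with BBC1115. Bax to Bak1 was 2.19 and 1.72 in DMSO and 5.68 and 4.64 with BBC1115. RNA ratios are not protein ratios.

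**Figure D3:**
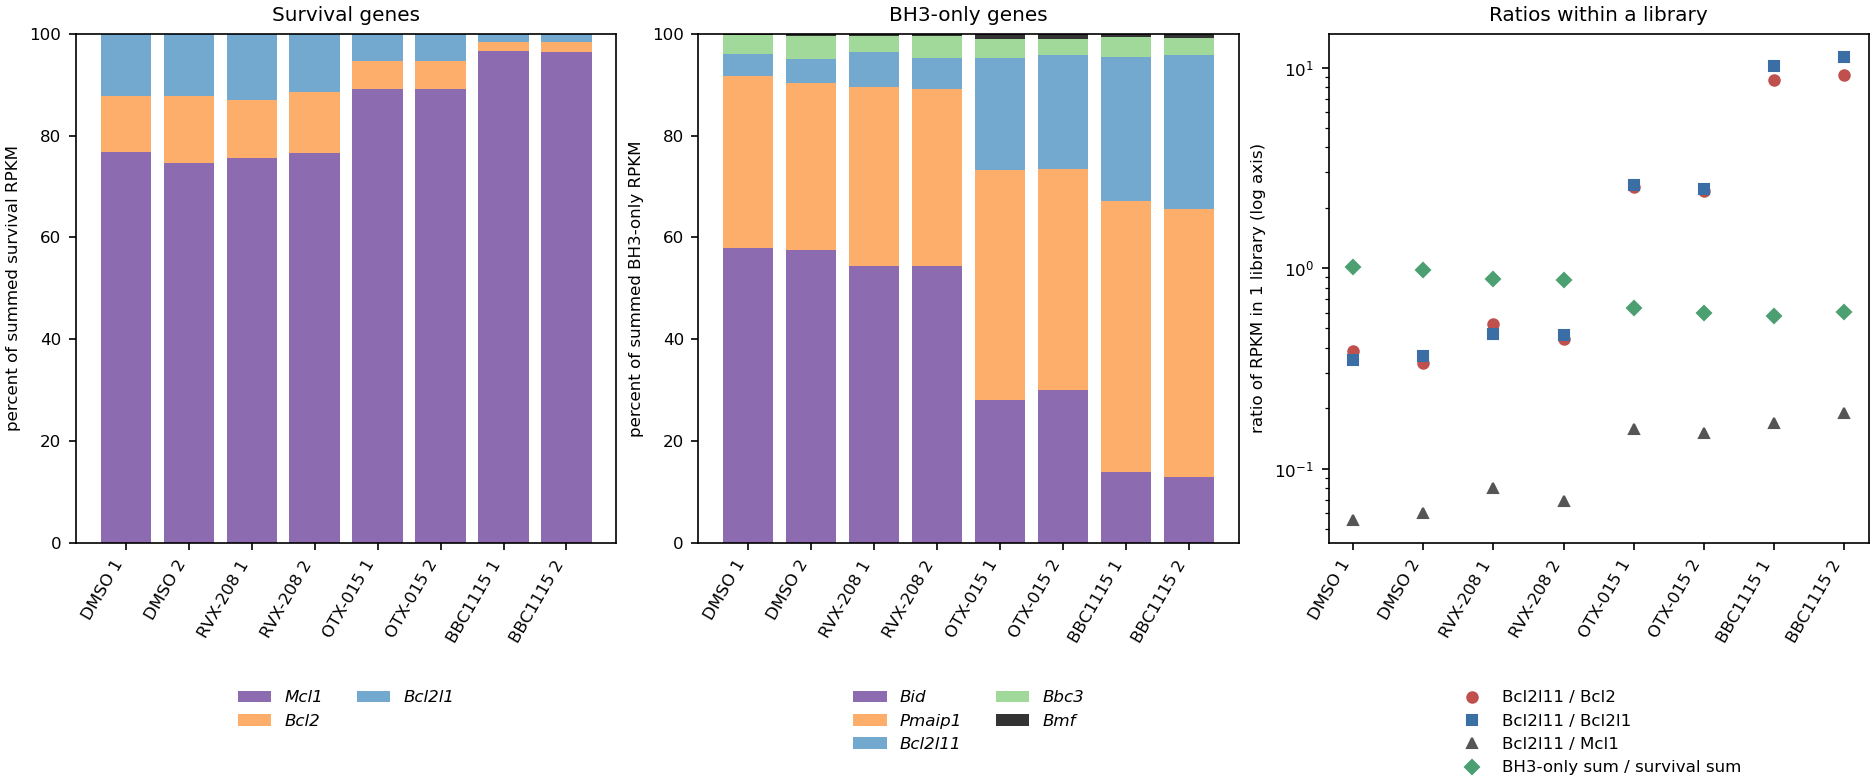
Make-up of the survival and BH3-only genes in each library, in percent of the summed RPKM, and ratios on a log axis. The Mcl1 and Bcl2l11 shares are larger and the Bcl2, Bcl2l1 and Bid shares smaller with OTX-015 and BBC1115 than with DMSO or RVX-208.

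The order of levels within a group also changed. In DMSO it was Bax, Mcl1, Bak1, Bid, Pmaip1, Bcl2l1 and Bcl2 (which overlapped), Bcl2l11 and Bbc3 (which overlapped) and Bmf. RVX-208 gave the same order, with overlap only of Bcl2l1 and Bcl2. With OTX-015 Mcl1 came first, then Bax, Pmaip1 and Bak1 (which overlapped), Bid, Bcl2l11, Bcl2 and Bcl2l1 (which overlapped), Bbc3 and Bmf. With BBC1115 the order was Mcl1, Bax, Pmaip1, Bcl2l11, Bak1, Bid, Bbc3 and Bcl2 (which overlapped), Bcl2l1 and Bmf.

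Other genes of the pathway were taken from lists. Of all kept genes, 24.2% were higher and 40.0% lower with OTX-015, and 26.4% and 49.3% with BBC1115. The all-gene medians were -0.13 and -0.25. List counts and medians near these values do not set a list apart. Of 16 other BCL2 family genes, 8 were kept; 2 rose and 4 fell with OTX-015 and 2 rose and 5 fell with BBC1115, with medians of -0.45 and -0.75. Among those that fell with both are Bcl2a1a and Bcl2a1d, named here after their values were seen, which passed the filter only through libraries of DMSO or RVX-208, so the filter favoured a fall for them. Bcl2a1a was at 1.09 and 1.19 RPKM in DMSO and below 1 in all other libraries, and how reads of these near-identical genes were assigned is not given. Bcl2l12 fell from 20.9 RPKM in DMSO to 9.17 with OTX-015 and 3.89 with BBC1115 (limma adjusted p = 6.93e-05 and 1.79e-07). Bcl2l2, the survival gene BCL-W, fell from 4.66 to 2.83 and 1.21 RPKM (0.000706 and 4.23e-07). Bnip3, a mitochondrial BH3-like gene known for its induction by hypoxia, rose from 15.9 to 25.2 and 39.6 RPKM (0.00048 and 1.25e-06).

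Of 12 caspase and apoptosome genes, all kept, 4 rose and 7 fell with OTX-015 and 4 rose and 6 fell with BBC1115. The medians were -0.28 and -0.23, beside -0.13 and -0.25 for all kept genes. Dffb, the nuclease that cuts DNA in apoptosis, fell from 7.86 RPKM in DMSO to 4.10 with OTX-015 and 3.67 with BBC1115 (limma adjusted p = 7e-05 and 1.16e-05).

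Of 12 listed inhibitors of apoptosis and their antagonists 11 were kept, of which 5 rose and 2 fell with OTX-015 and 5 rose and 3 fell with BBC1115 (medians 0.28 and 0.31). Htra2, a mitochondrial protease that antagonises the inhibitors, fell from 59.9 RPKM to 25.7 and 20.7 (limma adjusted p = 1.14e-06 and 7.07e-08). Naip5 rose from 7.03 to 12.8 and 11.8 RPKM and Naip6 from 5.87 to 10.7 and 8.67 RPKM, but these genes are near-identical, how their reads were assigned is not given, and their values are uncertain. The genes that rose with both compounds were Naip2, Naip5, Naip6 and the antagonist Diablo, some named after their values were seen. The OTX-015 median is the value of Naip1, which reached 1 RPKM only in the OTX-015 libraries. Counts and medians of this list thus rest in part on uncertain Naip values.

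Of 9 death receptor and adaptor genes 8 were kept, of which 2 rose and 1 fell with OTX-015 and 2 rose and 3 fell with BBC1115 (medians 0.15 and -0.02). Tradd, an adaptor of TNF receptor 1, rose from 13.3 RPKM to 19.1 and 21.6 (limma adjusted p = 0.00762 and 0.000927). Tnfrsf1a, the receptor, was at 38.8 in DMSO and 38.1 with OTX-015 (adjusted p = 0.793, but higher at 0.0314 after upper-quartile scaling) and fell to 24.9 with BBC1115 (3.54e-05). Fadd, the adaptor that recruits caspase-8, fell from 7.73 to 5.88 and 4.96 RPKM (0.0117 and 0.000443), and the OTX-015 call was lost after upper-quartile scaling (0.0683).

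Of 18 genes known to control the members' transcription or turnover 17 were kept, of which 8 rose and 4 fell with OTX-015 and 8 rose and 6 fell with BBC1115 (medians 0.28 and 0.10). Runx1, a transcription factor, fell from 5.28 RPKM to 1.11 and 0.490 (limma adjusted p = 4.84e-07 and 2.12e-08). Dynll1, a dynein light chain that binds BIM, rose from 73.2 to 115 and 210.0 RPKM (0.00114 and 1.09e-06). Ddit3, the stress factor CHOP, was listed at 0 in the DMSO and RVX-208 libraries, at 28.01 and 24.9 RPKM with OTX-015 and at 86.5 and 75.0 with BBC1115. Foxo1, named here after its values were seen, was below 1 RPKM in all DMSO and RVX-208 libraries and rose with both other compounds. Ddit3 and Foxo1 passed the filter only through libraries of OTX-015 and BBC1115, so the filter favoured a rise for them. RVX-208 changed 0 genes in each of these 5 lists by limma at adjusted p under 0.05, while at an unadjusted p under 0.05 the counts were 2 of 8, 3 of 12, 6 of 11, 0 of 8 and 3 of 17 in the order given, beside 0.17% of all kept genes at the adjusted and 1820 of 9975 at the unadjusted threshold.

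**Figure D4:**
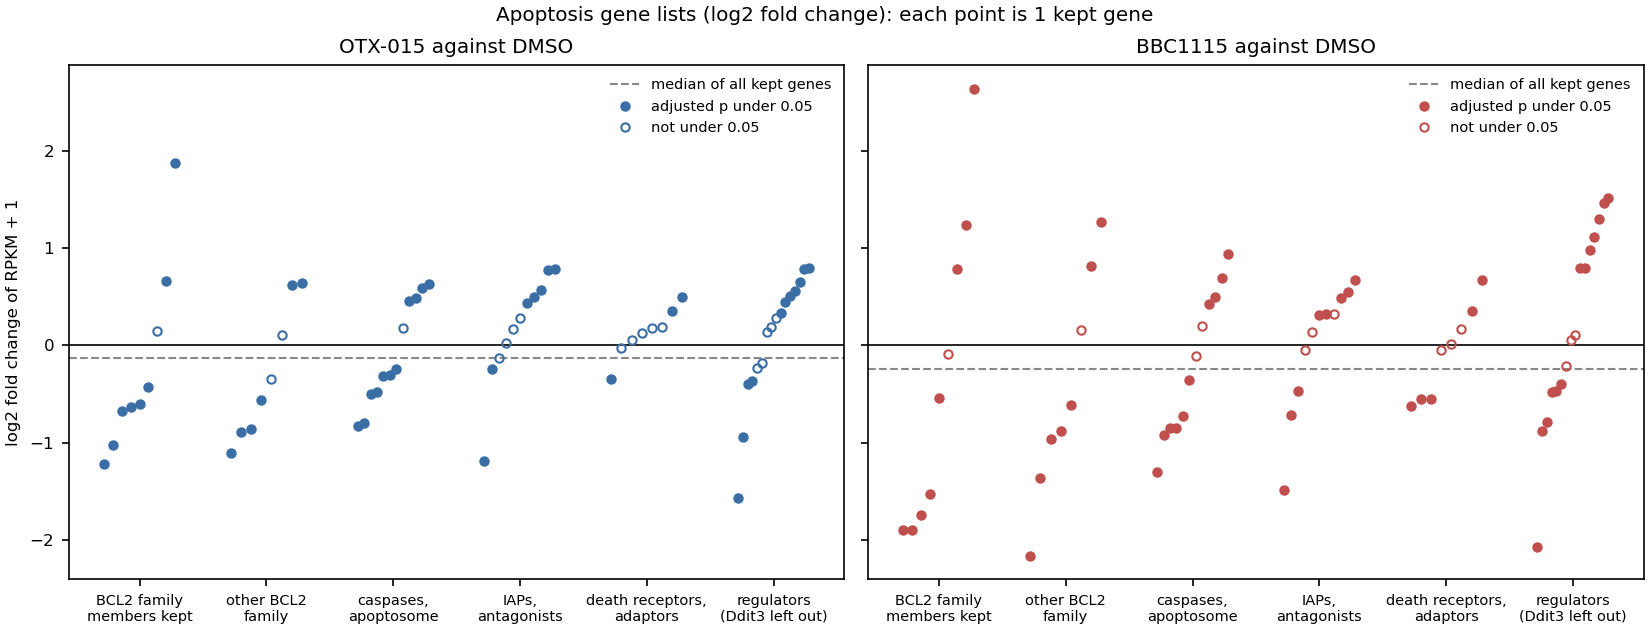
Log2 fold change of RPKM + 1 against DMSO for the BCL2 family members and 5 lists of apoptosis genes, with 1 point per kept gene and Ddit3 left out. Filled points passed adjusted p under 0.05 in limma, and the dashed line is the median of all kept genes (-0.13 with OTX-015 and -0.25 with BBC1115).

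Genes with levels most like a member's over the 8 libraries were sought for the 3 members with the largest BBC1115 changes on the log2(RPKM + 1) scale. That scale understates low genes, and by the ratio of mean RPKM Bcl2l1 (4.11-fold) would come before Bid and Bak1. For Bcl2l11 they were Arid5a, Lsm14b and Carhsp1 (Pearson r 0.999 for each), for Bid they were Wee1, Emb and Pdlim2 and for Bak1 they were Irf2bp2, Tmed10 and Tm6sf1. Carhsp1 went from 17.9 RPKM in DMSO to 74.7 with OTX-015 and 135 with BBC1115, and Wee1 from 19.7 to 8.64 and 5.29. The 8 libraries come from 4 treatments, and the likeness is a description without a test.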

How the data were processed

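RNA-seq of RN2 cells gave 8 libraries, 2 for each of DMSO, RVX-208, OTX-015 and BBC1115, grouped by the treatment in the labels. The authors deposited 1 table of RPKM values for 20484 gene symbols. Per the submitters' processing notes STAR, Cufflinks and the mm10 build were used, with versions, roles and settings not given in the sources used here; per the labels' protocols a directional mRNA kit was used. The members and the gene lists were chosen with earlier results of these data known.

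Values were taken as log2(RPKM + 1), which understates the change of low genes. Genes with at least 1 RPKM in at least 2 libraries were kept (9975). limma 3.58.1 in R 4.3.3 was fitted to the 4 group means with a mean-variance trend, with 4 residual and 6.81 prior degrees of freedom, and 6 contrasts were adjusted by Benjamini-Hochberg over all kept genes, with a threshold of 0.05. The labels call the 2 libraries biological replicates and name no separate cultures, so p-values measure only the spread between these samples. The compounds share the DMSO libraries. The fit was tested on simulated data. Named genes outside the 10 members are up to 3 per list with the largest changes among those past the threshold (some that the rule names are not reported here), and the 3 most like genes of 3 members. Alternatives were no filter or a mean of at least 5 RPKM, pseudocounts of 0.1 and 0.5, no variance trend, robust shrinkage, upper-quartile and quantile scaling, TPM, a fit of only the groups compared, the replicate number as a block, and leaving out each library, where the lone library left in a group is assumed to vary like the other groups.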

Additional observations from a re-analysis of the deposited data

How the results depend on the processing

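The log2 fold changes of the 9 tested members were recomputed under 11 other settings and without each of the 8 libraries, except that Bbc3 missed the filter of a mean of 5 RPKM and had 18 alternatives. Bmf had values only with no filter and as TPM. The called changes of Mcl1, Bcl2l11, Bcl2, Bcl2l1, Bid and Bak1 kept their call and direction in 19 of 19 alternatives in every comparison in which they were called, as did Pmaip1 with BBC1115. Among these alternatives, leaving out a library of a group outside a comparison kept its log2 fold change as it was and altered only the estimated spread. Such fits are therefore a weak check. Under the 11 other settings, 390 of the called values kept their call and 5 lost it. Of the uncalled values, 169 stayed uncalled with the same sign, 16 gained a call and 8 changed sign. The 16 were values of Pmaip1, Bbc3 and Bax, so missing calls of these genes depend on the setting. With RVX-208 against OTX-015, Pmaip1 passed as lower after upper-quartile scaling (limma adjusted p = 0.00203). Bax passed there as higher in the fit of only those groups (0.00394). As TPM, 4 members were higher with OTX-015 than DMSO (Pmaip1 and Bmf were added), beside 32.9% of all genes, and 4 were lower with RVX-208 than OTX-015, beside 21.5%. Against DMSO, the number lower with RVX-208 was 0 to 1 with one library left out, and 1 was reached without DMSO replicate 2 (Bax). Signs turned for uncalled values only. Bbc3 with BBC1115 against DMSO was 0.11 after upper-quartile scaling and 0.26 after quantile normalization, and -0.20 to 0.0099 with one library left out. With RVX-208 against DMSO, quantile normalization gave -0.036 for Bcl2 and -0.0056 for Bcl2l1, and TPM gave 0.038 for Pmaip1, and with one library left out the ranges were -0.10 to 0.12, -0.078 to 0.16 and -0.11 to 0.0017. Bax with BBC1115 against OTX-015 was -0.023 after quantile normalization and -0.095 as TPM, and -0.13 to 0.25 with one library left out. Bbc3 with RVX-208 against OTX-015 was -0.044 after quantile normalization, and -5.33e-05 to 0.30 with one library left out. The cause was not tested. With the replicate number as a block, 5 members were higher and 3 lower with RVX-208 than OTX-015, since Bax (adjusted p = 0.0184) and Pmaip1 (0.0366) passed, and Bax also passed as lower with BBC1115 than RVX-208 (0.0376), and no call was lost in limma. The share of all genes called with this block is not given here, so the added calls do not set these members apart. Across genes, deviations of same-numbered libraries correlated at -0.084 to 0.055 between groups, other than 0.524 for DMSO and BBC1115. The replicate numbers used for the block thus gave no general pairing, though those of DMSO and BBC1115 went together. Depth and doses limit the rest: the table holds no read counts, and each group has 2 libraries.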
